A study of Homo sapiens with 60 samples.

Results

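The genes described here are 9 amino acid transporters of the plasma membrane, other than the cystine carrier SLC7A11, in HT29 cells treated with herbal extracts. They were chosen by symbol, as the rows of the count table that carry the names SLC7A5, SLC3A2, SLC1A5, SLC1A4, SLC38A1, SLC38A2, SLC7A1, SLC1A1 and SLC6A14, and they are 9 of the 60675 genes in the table. HT29 is an established human cell line from a colorectal adenocarcinoma. Cells received 1 of 8 ethanol extracts for 24 h at 3 doses (high, medium or low), and the deposited table holds RNA-seq counts for 60 libraries in 25 groups. The series asks how herbal decoctions and the herbs in them act on the transcriptome.

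Menthae Herba and Saposhnikoviae Radix, which are herbs, and Saengmaek-san and Guibi-tang, which are formulas of several herbs, have 3 libraries at each of 500, 100 and 20 µg/mL. The formula Soyo-san has 2 libraries at each of the same doses, and the formula Okbyeongpung-san has 1. The herb Polygalae Radix has 2 libraries at each of 380, 76 and 15.2 µg/mL, and the herb Aucklandiae Radix has 2 at each of 370, 74 and 14.8 µg/mL. The series' design text sets the high dose at 500 µg/mL or, where this lay lower, at the IC20, the concentration that inhibits by 20%. The vehicle group has 3 libraries with DMSO, labelled 0.1% in the sample labels and 2% in the design text, so its concentration is uncertain. All groups are of this line. Whether replicates came from separate cultures is not in the labels, and a p-value here rests on the spread among libraries, which may be technical.

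Amino acid transporters work partly as a relay. Sodium-coupled importers such as SLC38A1 and SLC38A2 load the cell with glutamine and other neutral amino acids. The exchanger SLC7A5 spends part of that pool to bring in leucine and other large neutral amino acids, which signal to the growth kinase complex mTORC1 at the lysosome. SLC7A5 reaches the cell surface only as a pair with the heavy chain SLC3A2, which also pairs with SLC7A11. Starvation for amino acids, or another trigger of the integrated stress response, is known to raise several of these genes through the transcription factor ATF4, and colorectal cancers are known for high levels of SLC7A5 and SLC1A5.

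The names of the libraries begin with a set number. Polygalae Radix and Aucklandiae Radix share a set, as do Menthae Herba and Saposhnikoviae Radix, Saengmaek-san and Guibi-tang, and Soyo-san and Okbyeongpung-san, while the vehicle libraries have a set of their own. Totals ranged from 17079221 to 36796414 counts. The library Saposhnikoviae Radix low replicate 2 stood apart: it correlated with its closest group mate at r = 0.848, where all other libraries with a group mate reached 0.996 or more, and its mitochondrial share of counts was 3.33%, where the others had 6.19% to 12.3%. It was left out, and levels and calls below are without it unless stated. The 12 gut epithelium markers summed to 7424 to 14692 CPM in every remaining library. Most of this sum was the keratins KRT8 (3655 to 7976 CPM) and KRT18 (2531 to 4782 CPM). CDX1 (highest level 1.19 CPM), CDH17 (4 CPM) and CDX2 (5.06 CPM) were low. The 8 fibroblast markers summed to 1.55 to 3.49 CPM, with PDGFRA at 0 in every library, and 6 of the 8 stayed below 1 CPM everywhere. The 8 blood cell markers summed to 977 to 1632 CPM, nearly all of it LYZ (969 to 1622 CPM), with CD68 at up to 47.3 CPM and 5 of the 8 below 1 CPM everywhere. The 8 hepatocyte markers summed to 172 to 373 CPM, nearly all of it SERPINA1 (171 to 372 CPM), and the other 7 stayed below 1 CPM everywhere. The part of these markers in the results was not tested.

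Levels are given in CPM, read counts scaled to a common total with edgeR's composition factors, and between genes only as CPM per kb of exon. Without extract, SLC1A5, a sodium-dependent exchanger that carries glutamine, had the highest level of the 9, with 233 ± 7.48 CPM per kb (SD, n = 3). SLC7A1, the main importer of arginine and lysine, followed with 78.2 ± 8.18 CPM per kb and SLC7A5 with 72 ± 6.13 CPM per kb, and the ranges of mean ± SD of these 2 genes overlap. SLC38A1, an importer of glutamine, had 33.9 ± 1.53 and the heavy chain SLC3A2 31.7 ± 1.7 CPM per kb, whose ranges of mean ± SD also overlap. SLC38A2, an importer of small neutral amino acids, had 21.5 ± 1.42, and SLC1A1, an importer of glutamate, aspartate and cysteine, 19.1 ± 0.746 CPM per kb. SLC1A4, an exchanger of alanine, serine, cysteine and threonine, had 1.99 ± 0.243 CPM per kb. SLC6A14, a concentrating importer of neutral and cationic amino acids, had 0.0618 ± 0.0103 CPM per kb and only 1 to 12 counts in any library, so its fold changes are imprecise.

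All 9 members were in the gene annotation, and all passed the filter on low counts. On GRCh38 (GENCODE 29, whole gene, 1-based), SLC7A5 (ENSG00000103257) spans chr16:87830023-87869488 on the minus strand, and SLC3A2 (ENSG00000168003) spans chr11:62856102-62888875 on the plus strand. SLC1A5 (ENSG00000105281) lies at chr19:46774883-46788594 and SLC1A4 (ENSG00000115902) at chr2:64988477-65023865. SLC38A1 (ENSG00000111371, chr12:46183063-46270017) and SLC38A2 (ENSG00000134294, chr12:46358189-46372867) lie near each other on the minus strand of chromosome 12. SLC7A1 (ENSG00000139514) lies at chr13:29509410-29595688, SLC1A1 (ENSG00000106688) at chr9:4490444-4587469 and SLC6A14 (ENSG00000268104) at chrX:116436622-116461458. Genes on the other strand overlap SLC7A5 (AC126696.2), SLC1A5 (AC008622.2), SLC38A2 (AC025031.2) and SLC1A1 (SPATA6L), and since the strand setting of the counting is not given in the sources used here, reads of these pairs cannot be told apart with certainty.

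The sequences just upstream of a transcript start are shown for 4 members on which the results below turn: SLC3A2, SLC7A5 and SLC38A2, which were higher in some extracts, and SLC1A4, which was lower. The starts used for SLC3A2 and SLC1A4 lie inside the gene as GENCODE draws it, so these 2 stretches precede an internal start and not the outer end of the gene. The start used for SLC38A2, at 46372773, also lies inside its gene. The SLC38A2 stretch stops at the outer end of the gene, at 46372867, and so short of that start. All 4 stretches come from RefSeq promoter windows on GRCh38.p14, 250 bases before to 50 after a transcript start. They are written 5′ to 3′ on the gene's strand, and stop at or near an annotated exon. Capitals mark matches, on either strand, to the 3 motifs that were searched.
SLC3A2, chr11:62881549-62881670, plus strand: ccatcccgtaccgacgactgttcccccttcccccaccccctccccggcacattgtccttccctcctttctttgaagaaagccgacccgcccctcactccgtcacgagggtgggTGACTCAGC
SLC7A5, chr16:87869510-87869657, minus strand: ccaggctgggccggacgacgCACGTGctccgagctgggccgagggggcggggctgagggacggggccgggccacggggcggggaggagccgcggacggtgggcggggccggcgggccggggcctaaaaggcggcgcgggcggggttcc
SLC38A2, chr12:46372868-46373017, minus strand: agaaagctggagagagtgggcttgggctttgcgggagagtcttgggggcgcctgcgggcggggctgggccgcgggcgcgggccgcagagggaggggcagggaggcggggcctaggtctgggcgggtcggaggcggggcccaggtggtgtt
SLC1A4, chr2:64989249-64989399, plus strand: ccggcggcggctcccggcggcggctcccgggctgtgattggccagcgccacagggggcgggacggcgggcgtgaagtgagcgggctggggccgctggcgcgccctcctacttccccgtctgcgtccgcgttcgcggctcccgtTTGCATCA

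The motifs were the core bound by pairs of C/EBP and ATF factors (TGATGNAA), the core of the antioxidant response element (TGACNNNGC) and the E-box (CACGTG), and no match in a member's window overlapped another. All 9 members had a window, 15 in all. The C/EBP-ATF core was in 5 of the 15, against 3.62% of the 35116 promoter windows. The antioxidant core was in 4 of the 15, against 13.3%, and the E-box in 2 of the 15, against 7.26%. SLC3A2 carries TGACTCAGC 37 bases before its start, the antioxidant core in the form that is also a typical binding site of AP-1, and the C/EBP-ATF core on the other strand at position 38 after the start, outside the stretch shown. SLC7A5 carries an E-box 130 bases before its start and the antioxidant core at 2 bases before it, outside the stretch shown. SLC1A4 carries the C/EBP-ATF core on the other strand, 7 bases before its start, SLC1A5 carries it 97 bases before 1 of its starts, and SLC38A1 and SLC7A1 carry it near a start too. SLC38A2 and SLC1A1 held none of the 3 motifs in these windows, and SLC6A14 none either. A match is a description of the letters and does not show binding.

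The main question for each extract was whether the high dose differed from the low dose, a comparison that stays within 1 library set. A gene was called at an adjusted p under 0.05 (edgeR's quasi-likelihood test with Benjamini-Hochberg adjustment over 16978 genes). Differences between groups are log2 fold changes ± SE. At high dose the heavy chain SLC3A2 was called higher in 6 of the 7 extracts. The neutral amino acid carriers SLC7A5 and SLC1A5 were called higher in 4 each, and SLC1A4 and SLC1A1 were lower in some extracts. At the high dose of Aucklandiae Radix 5 of the 9 members were called higher, where 29.6% of all genes were, and 2 lower, where 29.2% were. In Menthae Herba 3 were higher (12% of all genes) and 3 lower (11.6% of all genes), and in Guibi-tang 6 were higher (8.84% of all genes) and none lower. In Polygalae Radix 1 was higher (13.3% of all genes) and 2 were lower (16% of all genes), shares close to those of the whole table. In Soyo-san 3 were higher (1.11% of all genes) and in Saengmaek-san 1 (0.412% of all genes). In Saposhnikoviae Radix no member was called, and 0.289% of all genes were. Of the 63 values in all, 19 were called higher, against 9.34% of all gene values, and 7 lower, against 9.68%. In bulk RNA, fewer cells of a kind and less RNA per cell cannot be told apart.

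With the outlying library added, the dispersion shared by all groups was 0.0269 in place of 0.00263, and fewer members were called: 5 in Aucklandiae Radix (36.1% of all genes), 3 in Menthae Herba (5.26% of all genes), 2 in Polygalae Radix (8.54% of all genes) and 2 in Guibi-tang (4.66% of all genes). None was then called in Saengmaek-san (0.0351% of all genes), Soyo-san (0.0702% of all genes) or Saposhnikoviae Radix, where 27.5% of all genes were. The 3 calls of Soyo-san rest on few libraries, since none was left without low replicate 1, and 1 was left without high replicate 1 or without low replicate 2. Saengmaek-san had 2 calls without low replicate 2.

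**Figure D1:**
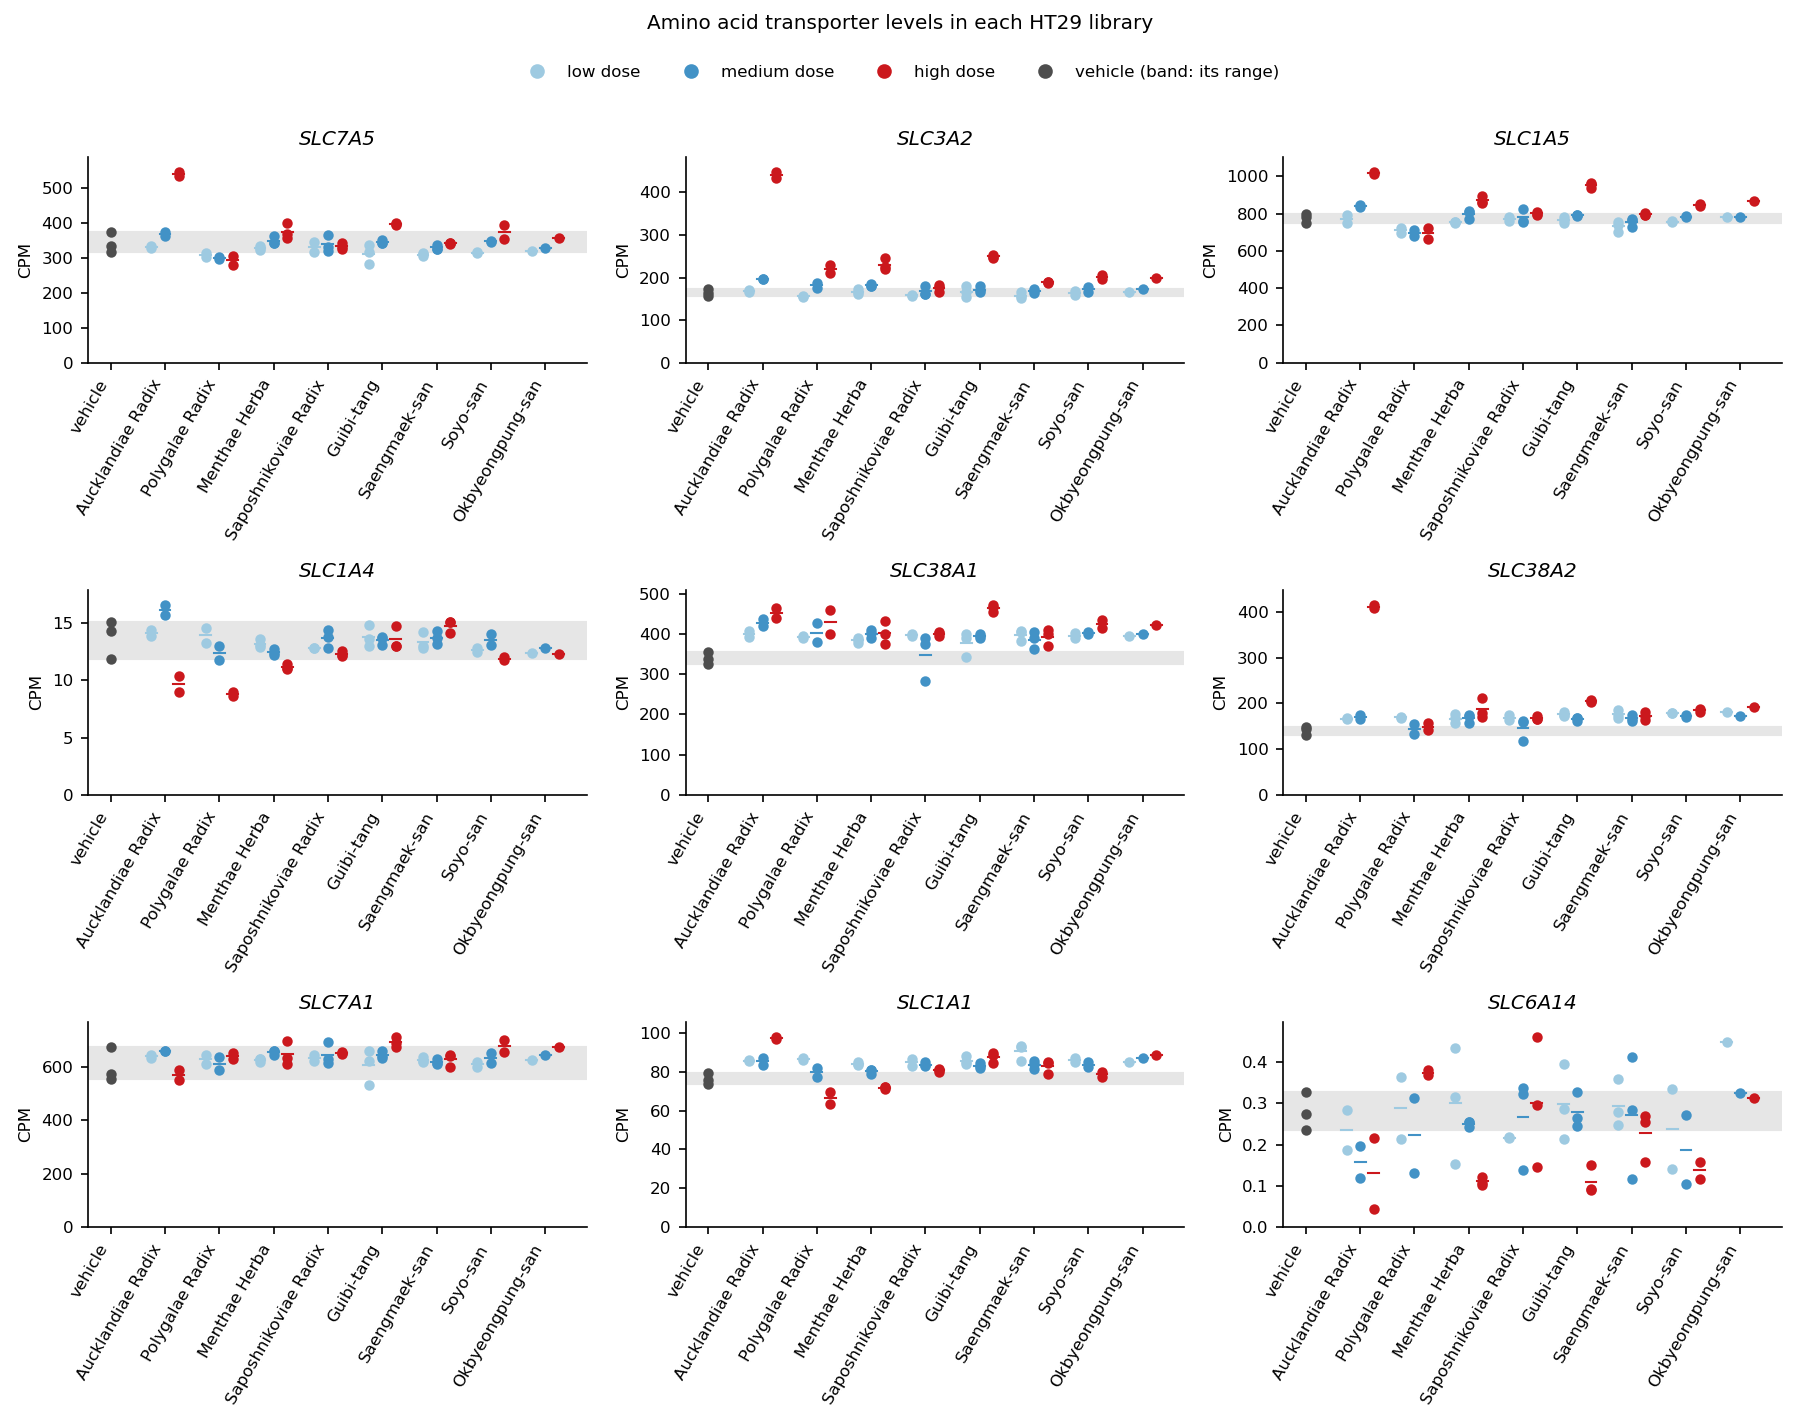
Level of each of the 9 transporters in every library, in CPM on a linear axis from 0, by extract, with light blue, blue and red points for the low, medium and high dose, a short line at the group mean and a grey band for the range of the 3 vehicle libraries. The outlying library is not drawn. The red points of Aucklandiae Radix stand far above the rest for SLC3A2 (447 and 433 CPM) and SLC38A2 (408 and 416 CPM).

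SLC3A2, the heavy chain, was the member called most widely, in 6 of the 7 extracts tested, always higher at high dose. In Aucklandiae Radix the high-dose libraries had 447 and 433 CPM and the low-dose libraries 167 and 171 CPM, a change of 1.38 ± 0.06 (2.61-fold, adjusted p 2.41e-23). In Guibi-tang the high-dose libraries had 247, 253 and 249 CPM against 154, 166 and 180 CPM, a change of 0.58 ± 0.05 (adjusted p 1.05e-12). The groups of both extracts were far from overlapping. In the smaller changes that follow, the high-dose libraries also all lay above the low-dose ones, with smaller gaps. Polygalae Radix had 229 and 211 CPM at high dose against 155 and 156 CPM, a change of 0.50 ± 0.06 (adjusted p 7.74e-09). Menthae Herba had 246, 224 and 220 CPM against 173, 162 and 165 CPM, a change of 0.47 ± 0.05 (adjusted p 7.47e-10). Soyo-san changed by 0.29 ± 0.06, from 159 and 168 to 196 and 205 CPM (adjusted p 0.0025). Saengmaek-san changed by 0.26 ± 0.05, with 189, 187 and 189 CPM against 156, 165 and 152 CPM (adjusted p 0.00241). In Saposhnikoviae Radix the value was 0.15 ± 0.06 and was not called (adjusted p 0.431), although its high-dose libraries, at 177, 183 and 165 CPM, lay above the low-dose ones at 160 and 156 CPM. The calls of Soyo-san and Saengmaek-san were lost with the outlying library added.

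SLC7A5, the light chain that carries leucine, was called higher in 4 extracts, each time with a smaller log2 fold change than its partner. In Aucklandiae Radix it had 535 and 545 CPM at high dose against 329 and 335 CPM at low dose, a change of 0.70 ± 0.06 (1.63-fold, adjusted p 4.03e-13). In Guibi-tang it had 401, 396 and 395 CPM against 338, 316 and 282 CPM, a change of 0.35 ± 0.05 (adjusted p 1.19e-06). The low-dose replicates of Guibi-tang are the more scattered group, with replicate 3 lowest. Soyo-san gave 0.24 ± 0.06 (adjusted p 0.022) and Menthae Herba 0.19 ± 0.05 (adjusted p 0.00495), the latter lost without high replicate 1, its highest library at 400 CPM. The call of Soyo-san was lost without high replicate 1, low replicate 1 or low replicate 2. With the outlying library added, the SLC7A5 calls of Guibi-tang, Soyo-san and Menthae Herba were lost. In Polygalae Radix, where SLC3A2 rose, SLC7A5 had 305 and 281 CPM at high dose and 304 and 314 CPM at low dose, which overlap (log2 fold change -0.07 ± 0.06, adjusted p 0.434). The difference between the changes of the 2 partners was not tested.

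SLC1A5, the glutamine exchanger, was called higher in the same number of extracts as SLC7A5, namely Aucklandiae Radix, Guibi-tang, Menthae Herba and Soyo-san. In Aucklandiae Radix it had 1021 and 1015 CPM at high dose against 748 and 794 CPM, a change of 0.40 ± 0.04 (adjusted p 4.85e-11). In Guibi-tang it had 967, 961 and 940 CPM against 784, 768 and 748 CPM, a change of 0.32 ± 0.03 (adjusted p 1.26e-09). In Menthae Herba it had 896, 857 and 860 CPM against 755, 757 and 750 CPM, a change of 0.21 ± 0.03 (adjusted p 1.13e-05). In all 3 of these extracts the high-dose libraries lay wholly above the low-dose ones. The same held in Soyo-san, and in Saengmaek-san and Saposhnikoviae Radix, where the gene was not called. In Soyo-san the change was 0.16 ± 0.04 (adjusted p 0.0273), and it was lost without any 1 of the 4 libraries compared.

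SLC1A4, the related exchanger for serine and alanine, went the other way and was called lower in 3 extracts. In Polygalae Radix it had 9.01 and 8.67 CPM at high dose against 13.3 and 14.6 CPM, a change of -0.66 ± 0.09 (adjusted p 7.91e-08). In Aucklandiae Radix it had 10.4 and 8.97 CPM against 13.9 and 14.4 CPM, a change of -0.54 ± 0.08 (adjusted p 3.66e-07). The Aucklandiae Radix medium dose, at 16.6 and 15.7 CPM, lay above every other library of the gene, so its level did not fall steadily with dose there. In Menthae Herba it had 11.4, 11.1 and 11 CPM against 13.1, 12.9 and 13.6 CPM, a change of -0.24 ± 0.07 (adjusted p 0.00719), which was lost with no filter on low counts. In Guibi-tang its levels overlapped (log2 fold change -0.02 ± 0.07).

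SLC38A2, the importer of small neutral amino acids that starved cells are known to induce, moved in Aucklandiae Radix nearly as much as SLC3A2. Its high-dose libraries had 408 and 416 CPM and its low-dose libraries 165 and 169 CPM, a change of 1.31 ± 0.09 (2.47-fold, adjusted p 1.49e-16). The medium-dose libraries of Aucklandiae Radix, at 165 and 174 CPM, were at the low-dose level. Guibi-tang was the other extract with a call, 205, 203 and 207 CPM against 181, 173 and 174 CPM (0.22 ± 0.07, adjusted p 0.0326), and this call was lost without any of 5 of its 6 libraries in turn. In Polygalae Radix the high-dose libraries, at 141 and 157 CPM, lay below the low-dose ones at 171 and 168 CPM, but the value of -0.18 ± 0.09 was not called (adjusted p 0.13). Menthae Herba high replicate 1, at 212 CPM, was apart from its group mates at 178 and 171 CPM.

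SLC38A1, the sister gene of SLC38A2 on chromosome 12, was called only in Guibi-tang, with 468, 456 and 473 CPM at high dose against 391, 400 and 343 CPM at low dose (0.30 ± 0.07, adjusted p 0.00109). This call was lost with the outlying library added. In Aucklandiae Radix, where SLC38A2 rose, SLC38A1 had 439 and 466 CPM against 407 and 393 CPM, and its change of 0.18 ± 0.08 was not called (adjusted p 0.0593). In Saposhnikoviae Radix, medium replicate 1 was the lowest library for both genes, with 282 CPM for SLC38A1 against 389 and 375 CPM in its group mates, and 117 CPM for SLC38A2 against 162 and 160 CPM.

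SLC7A1, the cationic amino acid importer, varied least over the groups, with a highest group mean 1.21 times the lowest. In Guibi-tang it had 713, 689 and 675 CPM at high dose against 661, 624 and 534 CPM (0.19 ± 0.05, adjusted p 0.0103), a call that was lost without high replicate 1 or without low replicate 3, the library at 534 CPM. In Aucklandiae Radix it had 551 and 590 CPM against 634 and 646 CPM (-0.16 ± 0.07, adjusted p 0.0351), and the call was lost with DESeq2's size factors, with DESeq2's Wald test and without 3 of the 4 libraries in turn.

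SLC1A1, the glutamate and cysteine importer, was called in opposite directions. In Polygalae Radix it had 63.7 and 69.7 CPM at high dose against 86.3 and 87.1 CPM, a change of -0.38 ± 0.05 (adjusted p 6.93e-09). In Menthae Herba it had 71.3, 72 and 72.2 CPM against 83.4, 83.9 and 85 CPM, a change of -0.23 ± 0.04 (adjusted p 6.38e-06). In Aucklandiae Radix it had 98 and 97.1 CPM against 85.6 and 86 CPM, a change of 0.19 ± 0.04 (adjusted p 0.000262). None of these groups overlapped, and all 3 calls were lost with the outlying library added. SLC6A14 was called in Menthae Herba, with 3 counts in each high-dose library against 4, 7 and 12 in the low-dose ones (-1.41 ± 0.50, adjusted p 0.034), and the call was lost under most alternatives, among them DESeq2's Wald test. In Guibi-tang, with 3, 2 and 2 counts against 6, 8 and 10, the value of -1.40 ± 0.53 was not called (adjusted p 0.0622).

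**Figure D2:**
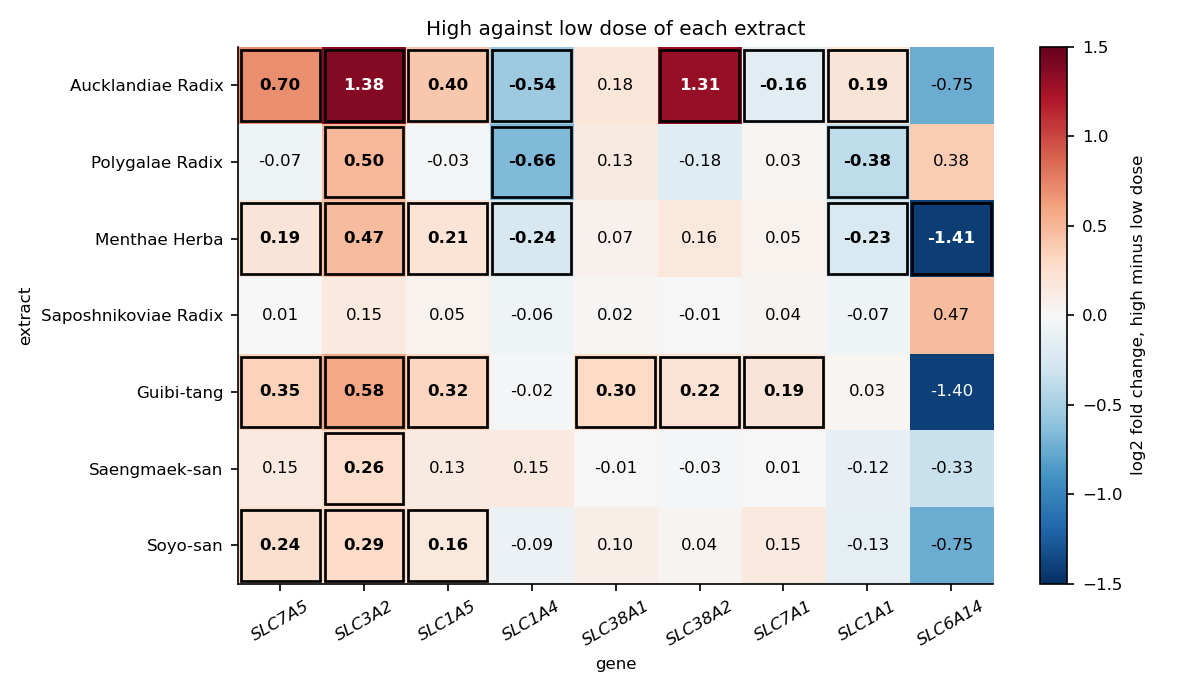
Log2 fold change of the high against the low dose for 9 transporters (columns) in 7 extracts (rows), red for higher and blue for lower at high dose, with the value in each cell and a black frame where the adjusted p was under 0.05. SLC3A2 is framed in 6 of the 7 rows, and SLC1A4 is blue and framed in Polygalae Radix (-0.66), Aucklandiae Radix (-0.54) and Menthae Herba (-0.24).

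At medium dose few differences from the low dose were seen. Over the 7 extracts 2 of 63 values were called, both for SLC3A2, against 1.1% of all gene values. SLC3A2 rose in Polygalae Radix, from 155 and 156 CPM to 188 and 175 CPM (0.23 ± 0.06, adjusted p 0.0168), where 2.84% of all genes were called higher. It rose in Aucklandiae Radix from 167 and 171 CPM to 197 and 197 CPM (0.22 ± 0.06, adjusted p 0.0328), where 1.51% were called higher. In both extracts the medium-dose libraries lay above the low-dose and below the high-dose ones. Each call was lost without most of its own libraries in turn, which left 1 of the 2 calls, and with the outlying library added neither was left.

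Extracts of the same set were then compared at high dose. Polygalae Radix and Aucklandiae Radix, at 380 and 370 µg/mL, differed in 7 of the 9 members, where 58.3% of all genes were called. SLC38A2 was 2.76-fold lower in Polygalae Radix (-1.47 ± 0.09, adjusted p 4.44e-18). SLC3A2 was 2.0-fold lower (-1.0 ± 0.06, adjusted p 1.19e-18), although Polygalae Radix had raised it too. SLC7A5 (-0.88 ± 0.06), SLC1A5 (-0.55 ± 0.04) and SLC1A1 (-0.55 ± 0.04) were also lower in Polygalae Radix. SLC7A1 (0.17 ± 0.07) and SLC6A14 (1.42 ± 0.58) were called higher (adjusted p 0.0293 and 0.0346), and both calls were lost with DESeq2's Wald test. SLC1A4, which fell in both extracts, differed by -0.14 and was not called, and SLC38A1 differed by -0.07.

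Menthae Herba and Saposhnikoviae Radix, both at 500 µg/mL, differed in 4 members, where 16.1% of all genes were called. SLC3A2 (0.40 ± 0.05, adjusted p 7.97e-08), SLC7A5 (0.17 ± 0.05, adjusted p 0.0191) and SLC1A5 (0.12 ± 0.03, adjusted p 0.0117) were higher in Menthae Herba, and SLC1A1 was lower (-0.17 ± 0.04, adjusted p 0.000962). Without Menthae Herba high replicate 1, the library with the highest SLC7A5, 2 of the 4 calls were left. Saengmaek-san and Guibi-tang, both at 500 µg/mL, differed in 5 members, all lower in Saengmaek-san, where 12.7% of all genes were called. These were SLC3A2 (-0.40 ± 0.05, adjusted p 3.5e-08), SLC1A5 (-0.26 ± 0.03), SLC38A2 (-0.25 ± 0.07), SLC38A1 (-0.24 ± 0.07) and SLC7A5 (-0.22 ± 0.05). Without Saengmaek-san high replicate 3, or without Guibi-tang high replicate 3, the 2 SLC38 genes were no longer called and 3 calls were left. The changes from low to high dose themselves were also compared within each set, a test chosen after seeing the data. They differed in 5 members between Polygalae Radix and Aucklandiae Radix (46.6% of all genes), in SLC3A2 alone between Menthae Herba and Saposhnikoviae Radix (3.59% of all genes), and in 3 members between Saengmaek-san and Guibi-tang (7.21% of all genes).

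**Figure D3:**
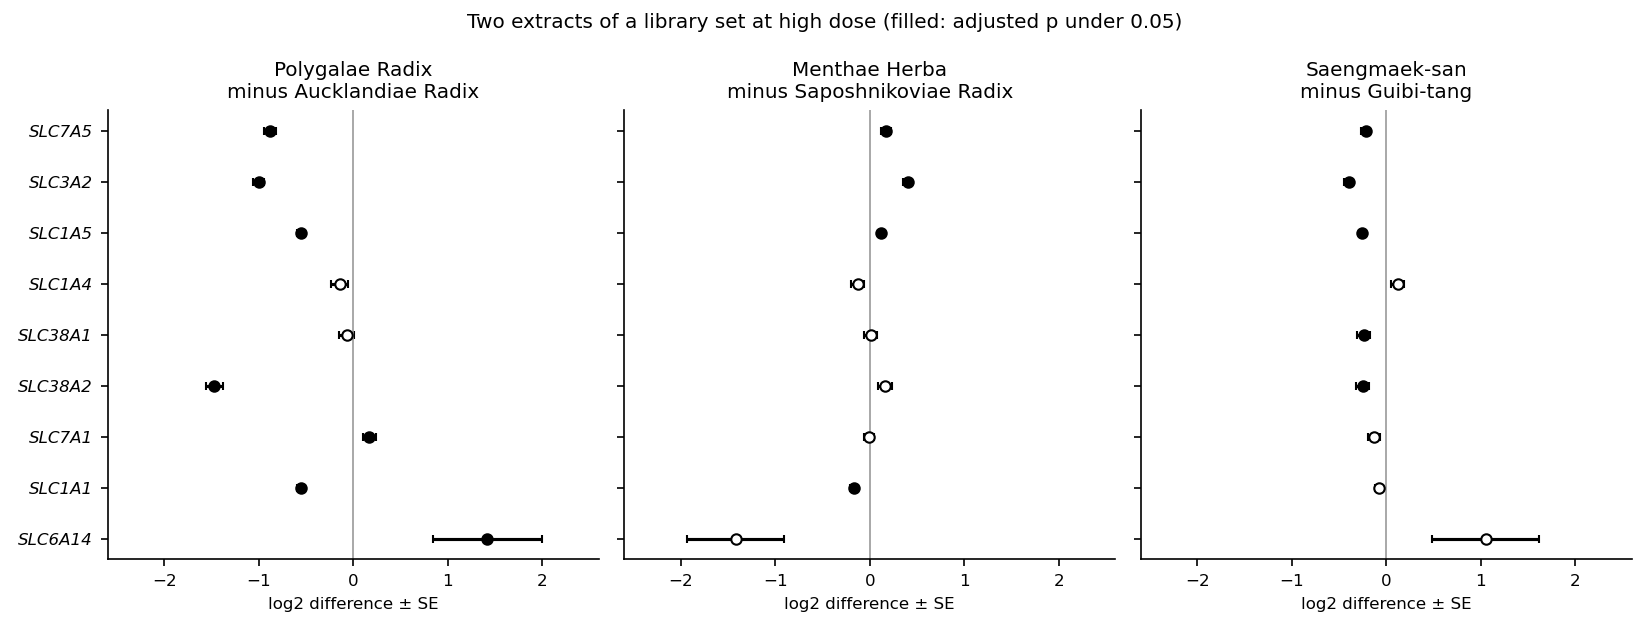
Difference between extracts of the same library set at high dose, as a log2 difference with its SE (bars), for each transporter, with filled points where the adjusted p was under 0.05. In the left panel SLC38A2 lies furthest from 0, at -1.47, and in the other panels SLC3A2 has the largest called difference, 0.40 and -0.40.

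Comparisons with the vehicle all share its 3 libraries, which belong to a set of their own, so an extract's effect and a difference between sets cannot be told apart. Over the 7 extracts at high dose 38 of 63 values were called, 30 higher, against 13.7% of all gene values, and 8 lower, against 14.3%. At low dose 16 were called, 14 higher, against 4.54% of all gene values, and 2 lower, against 5.43%. The low-dose calls were mostly SLC1A1, higher in all 7 extracts by 0.14 to 0.24, and SLC38A2, higher in 6 of the 7. All 18 low-dose libraries, Okbyeongpung-san included, had more SLC38A2 than any vehicle library, 157 to 186 CPM against 131 to 149 CPM. All 18 also had more SLC1A1, 83.2 to 93.5 CPM against 73.6 to 79.5 CPM, and 17 of the 18 had more SLC38A1. The low dose of SLC3A2 was above every vehicle library in 1 of 18 libraries, and the high dose in 18 of 19. The number of low-dose calls hung on single vehicle libraries: it was 4 without vehicle replicate 3 and 26 without vehicle replicate 2. The shares of all genes called in these refits are not given. With the outlying library added no low-dose call was left. Of all genes, 27.9% were then called in Saposhnikoviae Radix and 0.00585% to 0.486% in the other extracts. At high dose 14 of the 38 calls were left, with 0.287% (Saposhnikoviae Radix) to 39.6% (Aucklandiae Radix) of all genes called.

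Okbyeongpung-san has 1 library per dose and was not tested. Its high dose had 200 CPM of SLC3A2, against 174 at medium and 166 at low dose. Its SLC7A5 had 358, 328 and 320 CPM in the same order, and its SLC1A5 866, 782 and 784 CPM. SLC38A2 had 193, 172 and 182 CPM, and SLC1A4 had 12.3, 12.8 and 12.4 CPM. These single libraries have no replicate check.

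The pattern of each member over all 25 groups was then set beside that of 10551 genes with a mean of at least 5 CPM. The groups share library sets and scaling, so each Pearson r is a description, and it was also computed without the Aucklandiae Radix high dose, which lies far from the rest. SLC3A2 was most like TXNRD1, thioredoxin reductase, with r = 0.99 (0.96 without that group), and SRXN1, sulfiredoxin, with r = 0.99 (0.97), and both genes are known targets of the antioxidant factor NRF2. SLC7A5 was most like LRRC59 (0.97, then 0.92) and SSR3 (0.97, then 0.91), which are proteins of the endoplasmic reticulum membrane. SLC1A5 was most like TRIM16L (0.94, then 0.91) and ABCB6, a porphyrin transporter (0.94, then 0.90). SLC38A2 was most like RAB1A, a GTPase of traffic to the Golgi (0.97, then 0.83), and HSPA13, a chaperone (0.96, then 0.80). SLC38A1 was most like LRRC8B, a subunit of volume-regulated anion channels (0.94, then 0.92), and TMEM33 (0.93, then 0.92). SLC1A4 was most like HPF1 (0.88, then 0.85) and LRP11 (0.86, then 0.85), and SLC1A1 like ANO6 and TM9SF2 (both 0.90, then 0.88). SLC7A1 was most like PCSK5 (0.89, then 0.85) and UGT1A6 (0.88, then 0.82), whose reads may be divided with its UGT1A neighbours, and SLC6A14 like SELENOW (0.78, then 0.75) and ARMCX4 (0.78, then 0.78).

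Among the members, SLC7A5 and SLC1A5 were most alike, with r = 0.93 over the 25 groups and 0.94 without the Aucklandiae Radix high dose. The paired chains SLC7A5 and SLC3A2 had r = 0.85, and 0.57 without that group. SLC3A2 and SLC38A2 had r = 0.83, and 0.37 without it, so their likeness rested mostly on the 1 group in which both were far higher. SLC7A5 and SLC7A1 had r = -0.07 with it and 0.71 without it.

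**Figure D4:**
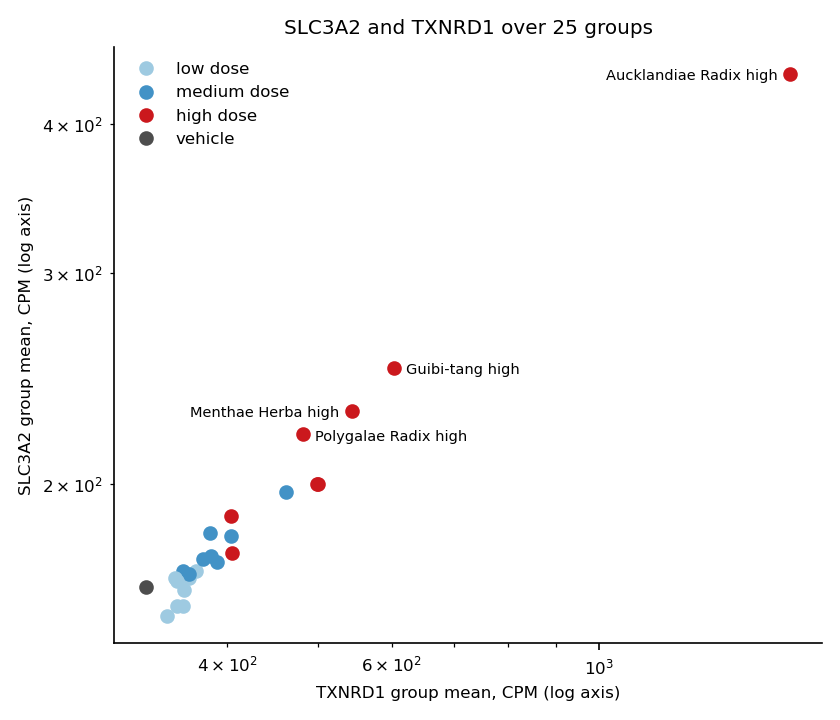
Group means of SLC3A2 against TXNRD1, both in CPM on log axes, for the 25 groups, coloured by dose. The points lie near 1 line, from the vehicle (164 and 328 CPM) through Guibi-tang high (250 and 603 CPM) to Aucklandiae Radix high (440 and 1600 CPM).

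Other genes of amino acid handling were read from lists, for the high against the low dose. The median over all genes was between -0.02 and 0.00 in each extract. The shares of all genes called higher and lower, beside which the counts of these lists stand, were 29.6% and 29.2% in Aucklandiae Radix, 13.3% and 16% in Polygalae Radix, 12% and 11.6% in Menthae Herba, and 8.84% and 9.08% in Guibi-tang. They were 1.11% and 1.38% in Soyo-san, 0.412% and 0.442% in Saengmaek-san, and 0.183% and 0.106% in Saposhnikoviae Radix. In Aucklandiae Radix all 7 tested lysosomal amino acid and peptide transporters rose, with a median of 0.68, among them the sialic acid and acidic amino acid carrier SLC17A5 (1.18), SLC38A7 (0.98), SLC66A1 (0.92) and the cystine exporter CTNS (0.68). In Polygalae Radix 6 of the 7 rose, with a median of 0.54, led by SLC66A1 (0.94), SLC17A5 (0.63), SLC38A7 (0.57) and CTNS (0.54). In Menthae Herba and Guibi-tang SLC66A1 alone rose, by 0.23 and 0.25, and in the other 3 extracts none was called.

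Of 15 tested other surface carriers, Aucklandiae Radix raised 6 and lowered 6 (29.6% and 29.2% of all genes), with a median of -0.07, and the largest changes were falls of SLC38A4 (-4.49), SLC16A10 (-2.0), SLC43A1 (-1.99) and SLC3A1 (-1.87). SLC3A1 is a heavy chain too, so the heavy chains SLC3A1 and SLC3A2 went opposite ways there. Menthae Herba raised 3 and lowered 7, with falls of SLC3A1 (-1.79), SLC6A20 (-1.28) and SLC7A8 (-1.09) and a rise of SLC38A4 (0.85). Guibi-tang raised 4 and lowered 4, led by SLC6A20 (-1.53), SLC3A1 (-1.15), the cystine carrier SLC7A11 (1.1) and SLC38A4 (0.55). Polygalae Radix raised 3 and lowered 4, led by the taurine carrier SLC6A6 (-0.61), SLC7A2 (-0.43), SLC7A11 (0.36) and SLC38A5 (-0.32). Soyo-san raised 3 and lowered 1, Saengmaek-san raised 1 and lowered 1, and Saposhnikoviae Radix lowered SLC6A20 (-0.62).

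The list of amino acid response genes, with 19 tested, differed in direction between extracts. In Aucklandiae Radix 9 rose and 6 fell (median 0.12), with rises of the stress factor DDIT3 (2.78), the glutathione-degrading enzyme CHAC1 (2.11), asparagine synthetase ASNS (1.70) and the pseudokinase TRIB3 (1.27). In Polygalae Radix 2 rose and 8 fell (median -0.21), with falls of PHGDH (-1.65), ASNS (-1.42), SHMT2 (-1.02) and PSAT1 (-0.87), enzymes of serine, asparagine and one-carbon metabolism. In Menthae Herba 9 rose and none fell (median 0.15), led by CHAC1 (0.79), DDIT3 (0.48), CEBPB (0.41) and ATF4 (0.30). Guibi-tang, with 6 members of the transporter group raised, had 2 of these 19 raised and 2 lowered (median -0.01). In Saengmaek-san ASNS rose (0.18), and in Soyo-san and Saposhnikoviae Radix none was called.

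Among 16 genes of glutamine and glutamate metabolism, Polygalae Radix lowered 12 and raised none (median -0.53), led by ASNS (-1.42), OAT (-1.30), CAD (-0.93) and GOT2 (-0.92). Aucklandiae Radix raised 4 and lowered 8 (median -0.15): ASNS (1.70) rose, and glutamine synthetase GLUL (-1.43) and ALDH18A1 (-1.26) fell. Menthae Herba raised 9 and lowered 2, and GLUL fell there by 0.29. Guibi-tang raised 3 and lowered 3, with GLUL at -0.43. Among 25 genes of amino acid sensing upstream of mTORC1, Aucklandiae Radix raised 13 and lowered 3 (median 0.26), with DDIT4 (1.57) and FLCN (1.22) higher and the sestrins SESN1 (-1.70) and SESN3 (-1.26) lower. Polygalae Radix raised 6 and lowered 3 (median 0.00), led by FLCN (0.94), RRAGC (0.89), FNIP1 (0.75) and LAMTOR1 (0.46). SESN1 was also lower in Menthae Herba (-0.68), Guibi-tang (-0.64), Soyo-san (-0.37) and Saengmaek-san (-0.23).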

How the data were processed

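The authors deposited expected counts per gene for 60 libraries, made with FastQC 0.11.9, Trim Galore 0.6.5, STAR 2.7.3a and RSEM 1.3.3 on hg38, per the submitters' processing notes. Directional mRNA libraries were sequenced as paired reads, per the labels' protocols. Of the values, 10.0% were not exactly whole, and all were rounded. Symbols matched 56558 of 60675 genes.

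Counts were tested with edgeR 4.0.16 (R 4.3.3): TMM, filterByExpr by group, a group-only design and its quasi-likelihood F-test (two-sided), over 16978 genes, 56 libraries and 22 groups that share 1 estimate of the spread (34 residual degrees of freedom). SE is the log2 fold change divided by the square root of F. CPM levels use TMM-scaled totals. The code was tested on simulated data. Okbyeongpung-san and the outlying library are not in the fit. Alternatives were the outlying library added, DESeq2 1.42.0 size factors and Wald test, no filter, same-set libraries alone, a replicate block and leaving out each library. Tests of a difference between dose effects were added after seeing the data.

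The members, lists and tests were chosen with earlier results of these data known. All members were named, at most 4 called genes by size per other list and comparison, and the 2 genes most alike per member (log2 of CPM plus 1). A wortmannin control was not analysed here. Some items that these rules would name are not reported here.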

Additional observations from a re-analysis of the deposited data

Results flagged for a closer look

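Within 3 library sets, the change from low to high dose was compared between the extracts of the set, as a difference of log2 fold changes ± SE (edgeR's quasi-likelihood test, Benjamini-Hochberg adjustment over 16978 genes). Of 27 values, 9 were called. These tests were chosen after seeing the data.

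Between Polygalae Radix and Aucklandiae Radix 5 members differed, where 46.6% of all genes were called, and in each the change was the lower one in Polygalae Radix. SLC38A2 differed by -1.49 ± 0.13 (adjusted p 3e-13), SLC3A2 by -0.88 ± 0.09 (adjusted p 9.12e-12) and SLC7A5 by -0.78 ± 0.09 (adjusted p 7.9e-10). The glutamate importer SLC1A1, lower at high dose in Polygalae Radix and higher in Aucklandiae Radix, differed by -0.57 ± 0.06 (adjusted p 3.69e-10). SLC1A5 differed by -0.43 ± 0.06 (adjusted p 7.21e-08). SLC1A4, which fell in both, was not called.

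Between Menthae Herba and Saposhnikoviae Radix, where 3.59% of all genes were called, SLC3A2 differed by 0.32 ± 0.07 (adjusted p 0.00688), and the call was lost without Saposhnikoviae Radix low replicate 1, which left 1 library in that group. Between Saengmaek-san and Guibi-tang, where 7.21% were called, SLC3A2 differed by -0.32 ± 0.07 (adjusted p 0.0016), SLC38A1 by -0.31 ± 0.10 (adjusted p 0.0382) and SLC1A5 by -0.19 ± 0.05 (adjusted p 0.00876). With the outlying library added, these 3 calls and that of SLC1A1 above were lost, and that of SLC1A5 was also lost with no filter on low counts. The call of SLC38A1 was lost without any 1 of 7 of the 12 libraries compared.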

How the results depend on the processing

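With the outlying library added (57 libraries), called members fell, as did the share of all genes called (in brackets): to 3 in Menthae Herba (5.26%), 0 in Saengmaek-san (0.0351%), 2 in Guibi-tang (4.66%) and 0 in Soyo-san (0.0702%) for high against low, to 4 for Polygalae against Aucklandiae Radix (35.8%), 1 for Menthae Herba against Saposhnikoviae Radix (2.26%) and 2 for Saengmaek-san against Guibi-tang (2.78%). For medium against low they fell to 0. There 0.503% of all genes were called in Polygalae Radix, 0.293% in Aucklandiae Radix, 25.5% in Saposhnikoviae Radix and none in the other extracts. For high against vehicle they fell to 14, with 0.287% (Saposhnikoviae Radix) to 39.6% (Aucklandiae Radix) of all genes called. For low against vehicle they fell to 0, with 27.9% called in Saposhnikoviae Radix and 0.00585% to 0.486% in the other extracts. Of 107 member values called, 38 kept their call, 67 lost it and 2 reversed, both in the group of that library against the vehicle: SLC38A2 -0.17 (adjusted p 0.585) and SLC1A1 -0.34 (adjusted p 0.386), edgeR's quasi-likelihood test. The negative binomial dispersion that all groups share was 0.0269 in this fit and 0.00263 without the library. DESeq2's size factors kept 105 of 107 calls, its Wald test 101 and no filter 89. Saengmaek-san had 2 calls with the Wald test, where 1.22% of all genes were called. Without the filter medium against low had 4, where 0.203% (Soyo-san) to 2.64% (Polygalae Radix) of all genes were called by extract. Same-set libraries alone kept 51 of 52.

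Same-numbered libraries of a set deviated together weakly at the median, with a median r of 0.01 to 0.09 by set. Single pairs went further, with r from -0.17 to 0.61 in set 11 and from -0.30 to 0.37 in set 13. For libraries of other numbers the median was -0.09 to -0.01. In set 13, 21 of 45 same-numbered pairs had r over 0.1, against 11 of 90 others, and in set 12, 10 of 40 against 3 of 80. In set 14 the r was 0.07 to 0.20 for same numbers. Its tested groups, like those of set 11, have 2 libraries each, whose deviations from the group mean are mirror images. The r for other numbers there is the same-number r with its sign turned. In groups of 3 the deviations sum to 0, so the r of other numbers also tends to the opposite sign. The contrast with other numbers is therefore no separate evidence of pairing. The main fit left the pairing by number out. A replicate block within the set kept 53 of 53 calls and added 9, with 3 calls in Saengmaek-san (1.7% of all genes). In the main fit 0.412% of all genes were called higher and 0.442% lower there. A block across sets kept 53 of 54. Leaving out each library in turn kept 472 of 604 values, reversed none, and gave counts of 3 to 3 for Polygalae Radix, 6 to 7 for Aucklandiae Radix, 4 to 6 for Menthae Herba, 0 to 0 for Saposhnikoviae Radix, 1 to 2 for Saengmaek-san, 4 to 7 for Guibi-tang and 0 to 2 for Soyo-san. The direct comparisons gave 5 to 6, 2 to 4 and 3 to 5, medium against low 1 to 2, high against vehicle 30 to 39 and low against vehicle 4 to 26. The shares of all genes called with a library left out are not given. Depth limits SLC6A14, with 1 to 12 counts per library. Where a call was lost, the cause was not tested.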
